A study of Triticum aestivum with 4 samples.

Results

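Crowns of winter wheat grow before winter, rest through it and grow again in spring. The miRNAs of crowns at the three-leaf stage, before winter, were compared here with those at the spring green-up stage, after winter, and the dormant crowns between these stages were left out. The comparison used 2 of the 4 small RNA libraries of the series and all 348 miRNAs of the deposited table, 282 of them known from miRBase and 66 listed as wheat_miRNAs. A miRNA entered the comparison when it exceeded 5 RPM (reads per 1000000 mapped reads, not divided by length) in at least 1 of the libraries, and 256 of the 348 did. Of the 92 others, 38 were listed at 0 in both libraries and 54 were above 0 in at least 1 of them. Both groups were crowns of Shimai 22, a semi-winter cultivar sown in autumn and grown in the field, so the crowns at green-up had passed the winter outdoors. No further treatment or genotype was named. Green-up corresponds to the double ridge stage, when the shoot apex begins to form the spike.

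The authors pooled equal amounts of RNA from 3 biological replicates of a stage before making its library. There was thus 1 library a stage, no replicate check between libraries was possible, and no p-value is given. The study also measured some of the miRNAs by quantitative RT-PCR and reported patterns like those of the sequencing for most of them. Those measurements were not used here. Intervals are exact binomial 95% intervals of the log2 ratio of green-up over three-leaf and describe counting error alone, since copies made by PCR could not be told from separate molecules. About 21670000 mapped reads at the three-leaf stage and 21890000 at green-up stood behind the values, as recovered from the steps between the listed values. At that depth 1 read was worth 0.0461 RPM and 0.0457 RPM, and the median width of the interval was 0.29 on the log2 scale. A table of miRNAs holds no marker of the crown itself, so the tissue label could not be checked against it. In bulk tissue, fewer cells of a type and less RNA per cell cannot be told apart.

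Plant miRNAs are cut from both arms of a folded precursor by a Dicer enzyme and loaded into an ARGONAUTE protein, where they pair with messenger RNAs over nearly their whole length and direct their cleavage or repress their translation. The bases near the 5′ end, the seed, weigh most in that pairing. Small RNAs of 21 and 22 nt mostly act on messenger RNAs, while those of 24 nt mostly guide DNA methylation at transposons. Many conserved families act on regulators of growth, and in crowns, which hold the shoot apex and the tiller buds, some set the age of the plant and the time of flowering.

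The miRNAs on which the comparison turned are shown first, as the most abundant, those with large ratios, or the partners and counterparts they are set against. Bases 2 to 8 are in capitals, and all sequences are those of the deposited table, written 5′ to 3′.
miR159a.1: uUUGGAUUgaagggagcucug
miR319b-3p: uUGGACUGaagggugcucccu
miR168a-5p: uCGCUUGGugcagaucgggac
miR168-3p: cCCGCCUUgcaccaagugaau
miR156a-5p: uGACAGAAgagagugagcaca
miR172a-5p: gCAGCACCaccaagauucaca
miR5200a-3p: uGUAGAUAcucccuaaggcuu
miR5200-5p: aAGCCUUAgugaauaucuaca
miR160a-5p: uGCCUGGCucccuguaugcca
miR396b-5p: uUCCACAGcuuucuugaacuu
miR396c-3p: gGUCAAGAaagcugugggaag
miR169g: uAGCCAAGgaugacuugccugu
miR398a-3p: uGUGUUCUcaggucgcccccg
miR7757-5p: aCAAAACCuucagcuauccauc
miR9662a-3p: uUGAACAUcccagagccaccg
miR9778: uGCAUCAUcucgaacucgucg
miR9773: uUUGUUUUuauguuauuuugugaa

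The makeup of the miRNA pool differed most in its 2 leading members. miR159a.1, which acts on GAMYB transcription factors of the gibberellin response, went from 21980.1 RPM before winter to 45173 RPM at green-up. miR168a-5p, which acts on ARGONAUTE1, the protein that most miRNAs work through, was at 36517.2 RPM and 12526.9 RPM. The order of the leading pair was therefore reversed between the libraries, with miR168a-5p first before winter and miR159a.1 first after it. miR159a.1 made up 15.4% of the summed RPM of all listed miRNAs at the three-leaf stage and 42.1% at green-up, and miR168a-5p 25.6% and 11.7%.

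All 348 miRNAs together summed to 142826.1 RPM before winter and 107282.1 RPM after it, 14.3% and 10.7% of the mapped reads. The sum at green-up was thus 0.751 of that at the three-leaf stage. Without miR159a.1 the ratio was 0.514, and without miR159a.1 and miR168a-5p it was 0.588, from 84328.8 RPM to 49582.2 RPM. Outside the leading pair, the listed miRNAs took up a smaller part of the mapped reads after winter. What filled the rest of the mapped reads was not tested.

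**Figure D1:**
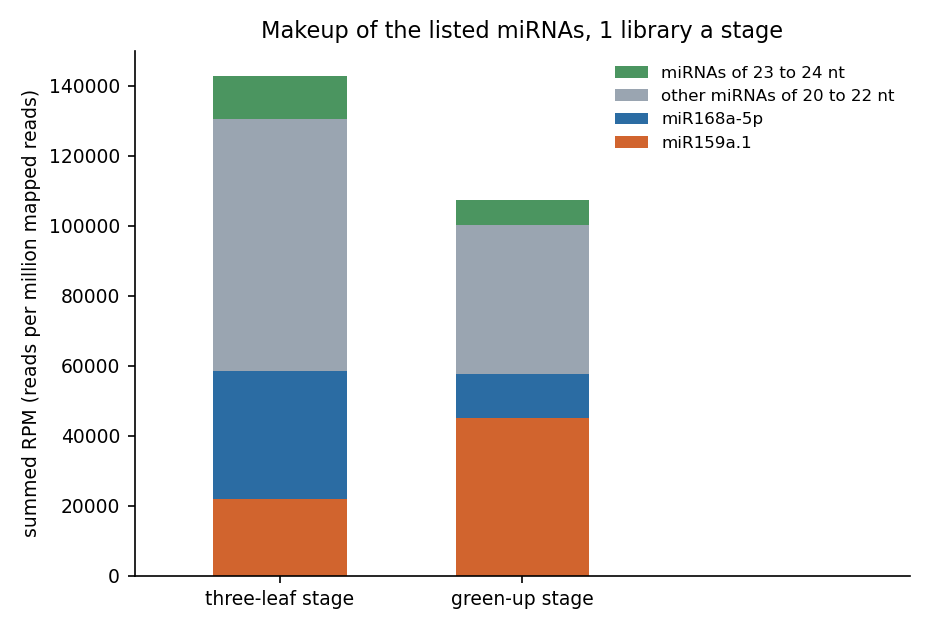
Summed RPM of the listed miRNAs in each library (y axis, 1 bar a stage), split into miR159a.1, miR168a-5p, the other miRNAs of 20 to 22 nt and those of 23 to 24 nt. The bar for green-up ends lower, at 107282.1 RPM against 142826.1 RPM, although its miR159a.1 segment is more than 2 times as tall.

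The 10 miRNAs with the highest RPM held 70.4% of the sum at the three-leaf stage and 72.4% at green-up, and 9 of them were in both lists. miR9773, a 24-nt miRNA of wheat, went from rank 7 to rank 19, at 4852.4 RPM and 959.9 RPM. miR160a-5p went from rank 23 to rank 10, at 689.9 RPM and 1499 RPM. Apart from miR159a.1, the shared members were miR168a-5p, miR5048-5p, miR5062a, miR7757-5p, miR9662a-3p, miR9674b-5p, miR171a-3p and miR171b, and each was listed at a lower RPM at green-up.

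A miRNA is called higher or lower below when its RPM differed by more than 2-fold, a log2 ratio beyond 1. By this rule 129 of the 256 miRNAs (50.4%) were called, 40 higher at green-up (15.6%) and 89 lower (34.8%), and 127 lay within 2-fold. The median log2 ratio of the 256 was −0.48, with quartiles of −1.29 and 0.61, so a miRNA at −0.48 changed like the typical one. The ratio was above 1 for 103 miRNAs and below 1 for 153. Counting error was small beside these differences, since the interval included 0 for 18 of the 256 and lay wholly past 2-fold for 110, of which 37 were higher and 73 lower. These intervals say nothing of the spread between plants, which the pooling hid.

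The balance of higher and lower calls depended on how the libraries were scaled. When the median ratio of the 243 miRNAs above 0 in both libraries was set to 1, which adds 0.47 to each log2 ratio, 69 were higher and 56 lower, and 55.2% of the calls were higher in place of 31.0%. These calls took in 48.8% of the 256, with 27.0% higher and 21.9% lower. With the sum of listed miRNAs set equal, 65 were higher (25.4%) and 57 lower (22.3%), which is 47.7% called, and 53.3% of the calls were higher. With the sum set equal after miR159a.1 and miR168a-5p were left out, which adds 0.77, 92 were higher (35.9%) and 45 lower (17.6%), which is 53.5% called, and 67.2% of the calls were higher. As each of these scalings raises every ratio, no higher call could be lost under them. Of the 89 called lower, 56, 57 and 45 stayed so. Each family below is therefore set against the median of −0.48. Its counts of calls are to be read against 15.6% higher and 34.8% lower over all miRNAs, or 27.0% and 21.9% after median-ratio scaling. Counts in the lists are those on the deposited values unless median-ratio scaling is named.

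**Figure D2:**
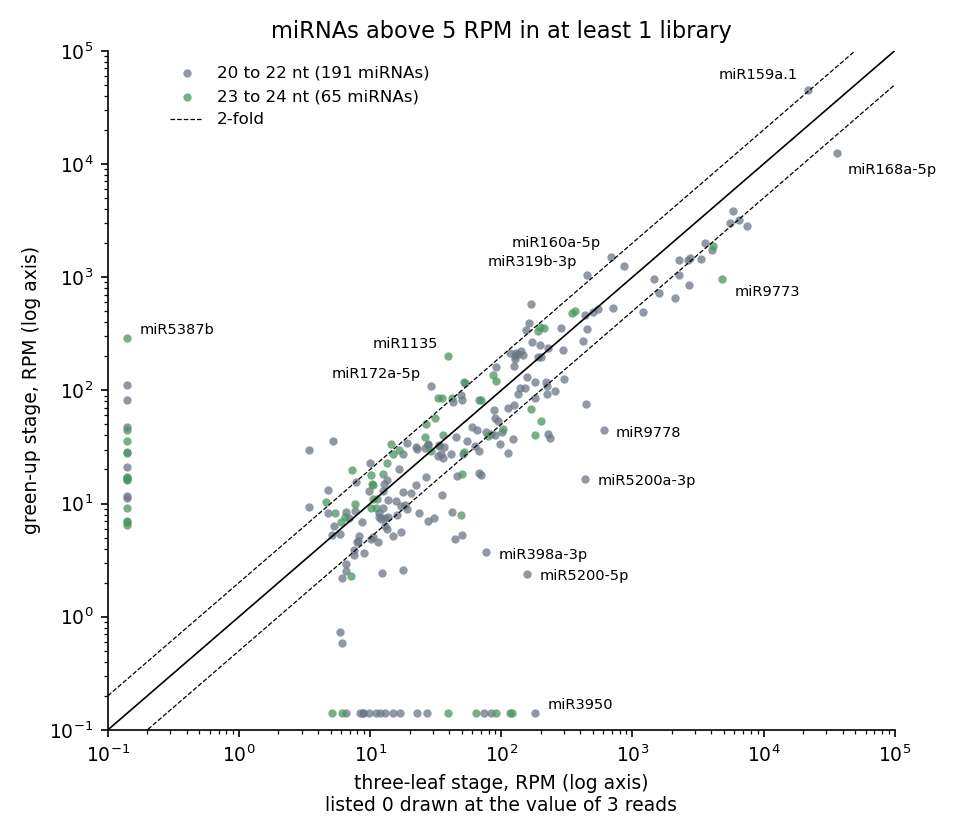
RPM at the three-leaf stage (x axis) and at green-up (y axis) of the 256 miRNAs above 5 RPM in at least 1 library, both axes log, coloured by length, with a listed 0 drawn at the value of 3 reads. The solid line marks equal RPM and the dashed lines 2-fold; more points lie under the lower dashed line (89) than above the upper one (40), and miR5200-5p lies farthest below among the named miRNAs above 0 in both libraries.

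Among the regulators of the phase of growth, the families diverged. miR5200, which in Brachypodium acts on FT genes, the florigens that promote flowering, was at its lowest of the 4 stages after winter. miR5200a-3p went from 437.5 RPM to 16.4 RPM, 26.7-fold lower, with a log2 ratio of −4.74 (−4.89 to −4.59). Its partner from the other arm, miR5200-5p, was at 157.3 RPM and 2.4 RPM, 65.5-fold lower, with a log2 ratio of −6.03 (−6.44 to −5.63). These were the largest falls among the 85 miRNAs above 0 in both libraries and above 100 RPM in at least 1. At dormancy, miR5200a-3p stood at 547.4 RPM, close to its level before winter.

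miR156, which holds plants in the juvenile phase through SPL transcription factors, was not called. miR156a-5p was listed at 294 RPM and 226.5 RPM, a log2 ratio of −0.38 (−0.43 to −0.32), near the median of all miRNAs. At dormancy miR156a-5p had been at 640 RPM, above both of the stages compared. The rarer entries of miR156 and miR157 went different ways. miR157b-3p was lower, at 49.2 RPM and 8 RPM, and miR156d-3p was listed at 64.1 RPM and 0. miR156h-3p and miR157d were listed at 0 at the three-leaf stage and at 21 RPM and 7 RPM at green-up.

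miR172, which acts on APETALA2-like repressors of flowering, was higher in 1 of its 2 entries. miR172a-5p was listed at 29.3 RPM and 109.2 RPM, 3.73-fold higher, with a log2 ratio of 1.90 (1.77 to 2.03). miR172e-3p, the arm that pairs with the APETALA2-like messenger RNAs, was at 13.4 RPM and 16 RPM, within 2-fold, with a log2 ratio of 0.26 (0.03 to 0.49). The call of the family thus rests on the arm that is usually the passenger. In all, 3 of the 9 miRNAs of these families were higher and 4 lower, with a median of −0.38. That median rests on 3 entries listed at 0 in 1 library, and over the 6 above 0 in both it was −1.50.

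All 3 miRNAs of the miR159 and miR319 families were higher. miR159a.1 had a log2 ratio of 1.04 (1.03 to 1.04), just past 2-fold. miR319b-3p, whose sequence resembles that of miR159 and which acts on TCP factors that limit cell division, was listed at 451.4 RPM and 1049.7 RPM, 2.33-fold higher. Its partner miR319-5p was at 5.2 RPM and 35.5 RPM, 6.83-fold higher. The median of the list was 1.22, against −0.48 for all miRNAs. At dormancy the miR319b-3p level had been 114.5 RPM, lower than at either of the stages compared, while that of miR159a.1 had been 21378.4 RPM, close to the three-leaf value.

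Of the families of the auxin response, miR160 was higher and most members of the others lay within 2-fold. miR160a-5p, which acts on the repressor-type auxin response factors, was listed at 689.9 RPM and 1499 RPM, 2.17-fold higher, with a log2 ratio of 1.12 (1.09 to 1.15). miR167a, which acts on the activator-type factors ARF6 and ARF8 in Arabidopsis, was at 2248.6 RPM and 1053.3 RPM, 2.13-fold lower, a call that each of the 3 scalings ended. miR390a-5p, which triggers the trans-acting small RNAs against other auxin response factors, was at 198.2 RPM and 250.9 RPM. miR393-5p, which acts on the TIR1 group of auxin receptors, was at 287.6 RPM and 352.5 RPM. Both lay within 2-fold, at log2 ratios of 0.34 and 0.29. The rare miR393b-3p was at 11.5 RPM and 4.6 RPM and lost its lower call under the scalings. Of the 7 auxin miRNAs compared, 1 was higher and 2 lower, with a median of 0.29.

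miRNAs that shape the meristem and the leaf were mostly within 2-fold. miR164a, which acts on NAC factors of the CUC group that set organ boundaries, was listed at 2673.4 RPM and 1420.9 RPM, a log2 ratio of −0.91. miR394a, which in Arabidopsis keeps the stem cells of the shoot apex competent by acting on the F-box gene LCR, was at 43.1 RPM and 79.5 RPM, a log2 ratio of 0.88. It lay just inside 2-fold and became a higher call under the 3 scalings. miR165a-5p, a passenger of the family that acts on HD-ZIP III factors of leaf polarity, was at 102.3 RPM and 45.1 RPM, a lower call that the scalings ended. In each of the 4 libraries the miR165a-3p entry repeats the total of the pair miR164a and miR164b-3p (2739.1 RPM before winter, 1465.5 RPM at green-up), so it was not read as a measurement of its own. Without that entry, 0 of the 4 miRNAs compared were higher and 1 was lower, and the median was −0.74 (−0.90 with it, as in the plot of the lists). The summed RPM given above include it.

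Both arms of miR168 were lower. miR168a-5p had a log2 ratio of −1.54 (−1.55 to −1.54), 2.92-fold lower. miR168-3p was listed at 2702.6 RPM and 846.2 RPM, 3.19-fold lower. After scaling to the sum without miR159a.1 and miR168a-5p they were at −0.78 and −0.91, which ended both calls, whereas the other 2 scalings kept them.

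miR171 and miR444, which act on genes that govern branching and tillering, were also listed at lower levels. miR171b, which acts on GRAS factors of the HAM group that maintain meristems, was at 4056 RPM and 1721.8 RPM, 2.36-fold lower. miR171a-3p differs from it by 1 base (C12U from miR171a-3p to miR171b, counted from the 5′ end) and was at 3606.1 RPM and 2000.8 RPM, within 2-fold.
miR171a-3p: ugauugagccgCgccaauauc
miR171b: ugauugagccgUgccaauauc
The capitals mark the base that differs, and the pair is shown because reads with 1 mismatch could have been assigned to either. Their sum was 0.486 of the three-leaf value at green-up. miR444b.1, which acts on MADS-box genes in grasses, was at 1211 RPM and 492.8 RPM, 2.46-fold lower, and miR170-3p was near the level limit, at 6.1 RPM and 2.2 RPM. Of the 4 compared, 0 were higher and 3 lower, with a median of −1.27. Of the 3 lower calls, only that of miR170-3p was kept under the median ratio, and it too was lost without miR159a.1 and miR168a-5p.

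The regulators of growth factors were lower in all but 1 arm. miR396b-5p, which acts on GROWTH-REGULATING FACTOR genes that promote cell division in young organs, was listed at 2094.3 RPM and 653.8 RPM, 3.20-fold lower, with a log2 ratio of −1.68 (−1.71 to −1.65). Its partner miR396c-3p went the other way, at 155.4 RPM and 340.4 RPM, 2.19-fold higher. miR530-3p and miR530-5p, of a family that in rice lowers yield through a PLUS3-domain gene, were 3.88-fold and 2.96-fold lower, from 69.5 RPM to 17.9 RPM and from 35.5 RPM to 12 RPM. The list had 1 miRNA higher and 3 lower of 4, with a median of −1.62. After scaling to the sum without miR159a.1 and miR168a-5p, miR396b-5p was at −0.91 and miR530-5p at −0.80, within 2-fold.

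The lowest list medians belonged to miR169 and to the copper miRNAs. miR169, which acts on the NF-YA subunits of a CCAAT-binding factor, was lower in both members compared and under every scaling tried. miR169g was listed at 229.1 RPM and 41.2 RPM, 5.56-fold lower, and miR169a-5p, which shares its seed, at 50.3 RPM and 5.3 RPM, 9.49-fold lower. The median of the pair was −2.86. At dormancy both had been above their three-leaf level, at 295.9 RPM and 134.9 RPM.

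Copper miRNAs reduce the making of copper proteins when copper is short. miR398a-3p, which acts on copper/zinc superoxide dismutases, was listed at 76.3 RPM and 3.7 RPM, 20.6-fold lower, with a log2 ratio of −4.37 (−4.71 to −4.04). Its partner miR398f-5p was at 42.2 RPM and 8.4 RPM. miR397a, which acts on laccases that polymerise lignin, was at 30.7 RPM and 7.5 RPM, 4.09-fold lower. All of these stayed lower under every scaling tried. miR528-5p, a monocot family that acts on ascorbate oxidase and laccase genes, was near the level limit in both libraries, at 5.1 RPM and 5.3 RPM. Thus 3 of the 4 copper miRNAs compared were lower and 0 higher, with a median of −2.18.

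Among the nutrient miRNAs, 2 of the 3 compared were lower. miR399b, which acts on PHO2, a brake on phosphate uptake, was listed at 97.1 RPM and 33.7 RPM, 2.88-fold lower, a call lost only when the leading pair was left out of the sum. miR827, which acts on SPX-domain phosphate transporters, was at 89.9 RPM and 40.5 RPM, 2.22-fold lower, a call that each scaling ended. miR395b, which acts on ATP sulfurylases of sulfate assimilation, was at 18.5 RPM and 9.7 RPM, a log2 ratio of −0.93. The median of the list was −1.15.

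Of the miRNAs that act on immune receptors of the NLR type, 2 of 4 were lower and 0 higher, with a median of −1.11. miR7757-5p, for which cleavage of an RGA5-like resistance gene was mapped in wheat, was the third most abundant miRNA at the three-leaf stage. It was listed at 7455.9 RPM and 2804.9 RPM, 2.66-fold lower, a call that each of the 3 scalings ended. miR9863a-3p, which acts on Mla genes in barley, was at 545.9 RPM and 518 RPM, a log2 ratio of −0.08. miR2118c, of a family that in grasses triggers phased small RNAs in the young flower, was at 11.9 RPM and 0.

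**Figure D3:**
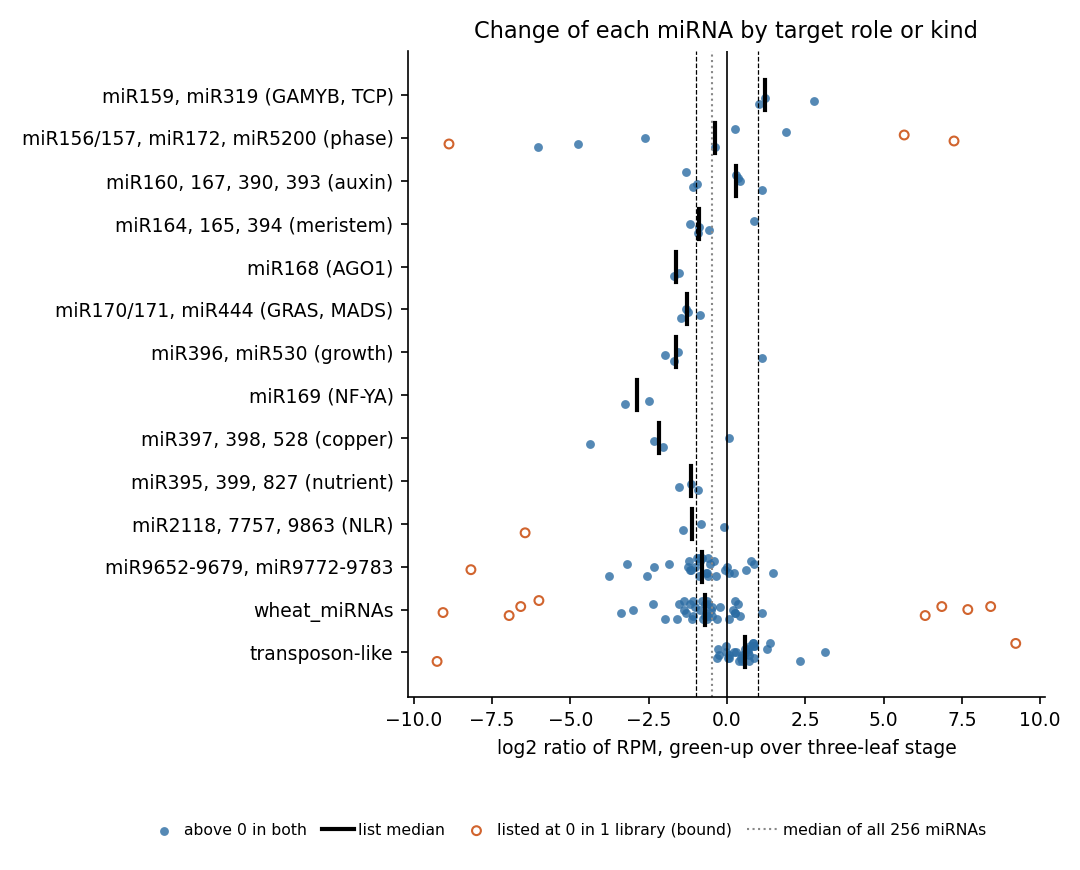
Log2 ratio of RPM at green-up over three-leaf (x axis) of each miRNA in 14 lists by target role or kind; filled points were above 0 in both libraries, open points were at 0 in 1 of them and are bounds, bars are list medians and the dotted line is the median of all 256 miRNAs. The miR159 and miR319 list and the transposon-like list have medians of 1.22 and 0.56, while the lists of miR169 and copper miRNAs have medians of −2.86 and −2.18.

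Families first described in wheat (miR9652 to miR9679 and miR9772 to miR9783) had 1 member higher (3.23%) and 11 lower (35.5%) of 31, with a median of −0.78. Over all miRNAs these shares were 15.6% and 34.8%, so the share of lower calls was near that of all. After median-ratio scaling 4 were higher and 6 lower, when 27.0% and 21.9% of all miRNAs were. The lower calls of miR9653b, miR9661-5p, miR9662a-3p, miR9674b-3p and miR9772 were lost under each of the 3 scalings. miR9778 was listed at 602.6 RPM and 44.3 RPM, 13.6-fold lower, the third largest fall among the 85 miRNAs above 0 in both libraries and above 100 RPM in at least 1. miR9675-3p was at 441.1 RPM and 75.9 RPM, 5.81-fold lower, and miR9774 at 44.4 RPM and 4.9 RPM, 9.06-fold lower. miR9773 was 5.06-fold lower. These 4 stayed lower under every scaling tried. The single member called higher was miR9670-3p, a rare miRNA at 3.4 RPM and 9.4 RPM. miR9672b lay at 496.7 RPM and 493.5 RPM, unlike most of the list.

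For some wheat miRNAs the study mapped cleavage of a target, and most of them had log2 ratios of −0.5 to −1.2. miR9662a-3p, whose targets are mTERF genes of mitochondrial transcription, was listed at 6522.1 RPM and 3200.6 RPM, a log2 ratio of −1.03. miR9772, whose targets are F-box genes, was at 1606.4 RPM and 720 RPM, a log2 ratio of −1.16. miR5048-5p, with a terpene synthase target, was at 5891.1 RPM and 3809 RPM, and miR9674b-5p, with a target like the fertility restorer Rf1, at 5522.4 RPM and 2997.5 RPM. These had log2 ratios of −0.63 and −0.88. wheat_miR1356, which also acts on mTERF genes, and miR9676-5p, with a stress-resistance target, had ratios of −0.52 and −0.62. wheat_miR259, with a kinesin-like target, stood apart at 5.86 RPM and 0.73 RPM, 8.03-fold lower, a difference of 127 and 16 reads. wheat_miR652, with a FAF-like target, stayed under the level limit at 2.58 RPM and 2.65 RPM. The lower call of wheat_miR259 was kept under all 3 scalings.

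The wheat_miRNAs as a whole had 5 members higher (11.1%) and 18 lower (40%) of 45, near the shares of 15.6% and 34.8% over all miRNAs, with a median of −0.71. After median-ratio scaling 5 of the 45 were higher (11.1%) and 10 lower, when 27.0% and 21.9% of all miRNAs were. The share of higher calls was then below that of all. wheat_miR1818 was listed at 52.78 RPM and 115.08 RPM, 2.18-fold higher, the single one called higher that was above 0 in both libraries. wheat_miR1576 was at 73.22 RPM and 0.

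Entries of 19 families were compared as the arms of a precursor. They were matched by name and paired over at least 15 bases. Of these, miR1120 and miR1120b-3p share the run GGGACGGAG and so read as the same strand, not as opposite arms. That pair is kept in the counts below, at log2 ratios of 0.06 and 0.29. In 16 of the 19 the log2 ratios of both arms had the same sign, and in 14 the arms were within 2-fold of each other. The arms of miR168, miR390 and miR1127 differed by no more than 0.13 on the log2 scale. The arms of miR396 were farthest apart, since miR396c-3p made up 6.91% of the pair at the three-leaf stage and 34.2% at green-up. Those of miR393 and miR5181 also had opposite signs, although miR5181c-5p, at 33.6 RPM and 32.6 RPM, hardly differed. In miR398 the arm that is usually the guide, miR398a-3p, was the more abundant one at the three-leaf stage and the rarer one at green-up, when miR398f-5p made up 69.4% of the pair. The arms carry names of different family members in most pairs, so they need not come from the same precursor.

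**Figure D4:**
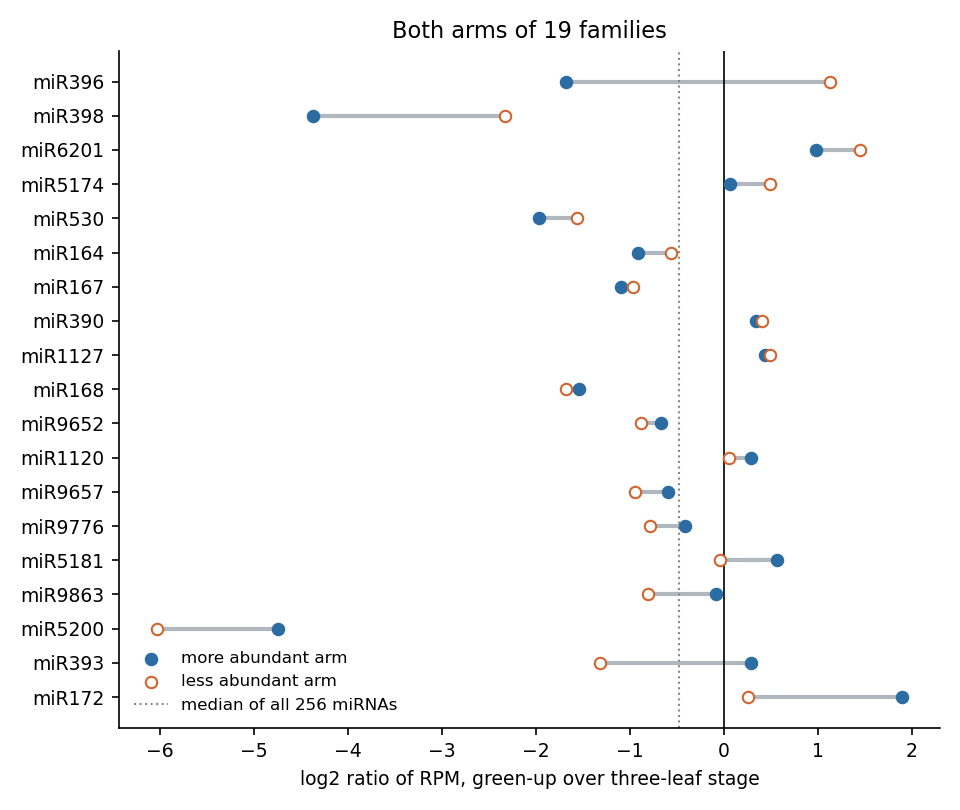
Log2 ratio of RPM at green-up over three-leaf (x axis) of the entries compared as arms in 19 families (y axis), with the entry more abundant at the three-leaf stage filled and the other open. The entries of miR1120 read as the same strand, not as opposite arms. In 14 families the points are less than 1 apart, and in miR396 they lie on opposite sides of 0, at −1.68 and 1.13.

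The length of the miRNA went with its ratio. The 191 miRNAs of 20 to 22 nt had a median log2 ratio of −0.66, with 21 higher (11%) and 72 lower (37.7%). The 65 miRNAs of 23 to 24 nt had a median of 0.51, with 19 higher (29.2%) and 17 lower (26.2%). Over all 256 these shares were 15.6% and 34.8%. The counts moved with the scaling, to 37 higher and 44 lower in the shorter class and 32 and 12 in the longer one after median-ratio scaling. The medians thus lay 1.17 apart, a difference that no scaling of a whole library can alter. By single lengths the medians were −0.89 at 20 nt (12 miRNAs), −0.61 at 21 nt (152), −0.85 at 22 nt (27), −1.18 at 23 nt (9) and 0.64 at 24 nt (56), so the longer class was set apart by its 24-nt members and not by those of 23 nt. Of the 56 miRNAs of 24 nt, 19 were higher and 10 lower. Of these calls, 11 of the higher and 4 of the lower rest on a listed 0 in 1 library. Over the 41 of 24 nt above 0 in both libraries the median was 0.49.

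The medians were also apart at each level of abundance. Among miRNAs with a mean of 2.5 to 20 RPM the medians of the shorter and the longer class were −0.85 and 0.58, between 20 and 100 RPM −0.59 and 0.24, and above 100 RPM −0.54 and 0.47. The counts of the longer class did not all follow its medians, with 11 higher and 4 lower at the lowest level, 6 and 8 at the middle one and 2 and 5 at the highest. The summed RPM of the longer class did not follow its median, for it was 12397.7 RPM before winter and 7107.3 RPM after it. miR9773 (24 nt) and miR5062a (23 nt, 4095.8 RPM and 1887.2 RPM, a lower call that the scalings ended) made up most of that sum. Without them the 88 others summed to 3449.5 RPM and 4260.2 RPM.

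miRNAs that begin with U, the base that ARGONAUTE1 prefers in Arabidopsis, had 8 members higher (7.48%) and 43 lower (40.2%) of 107, with a median of −0.71. Over all miRNAs these shares were 15.6% and 34.8%. After median-ratio scaling 19 were higher and 23 lower, when 27.0% and 21.9% of all miRNAs were. Those that begin with A had a median of 0.02 (66 miRNAs), with C −0.24 (43) and with G 0.12 (40). Within 21 nt the medians were −0.74 for U, −0.33 for A, −0.31 for C and −0.71 for G, and within 24 nt 0.80, 0.81, 1.42 and 0.25. The first base and the length overlap, since 98 of the 107 that begin with U were of 20 to 22 nt.

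**Figure D5:**
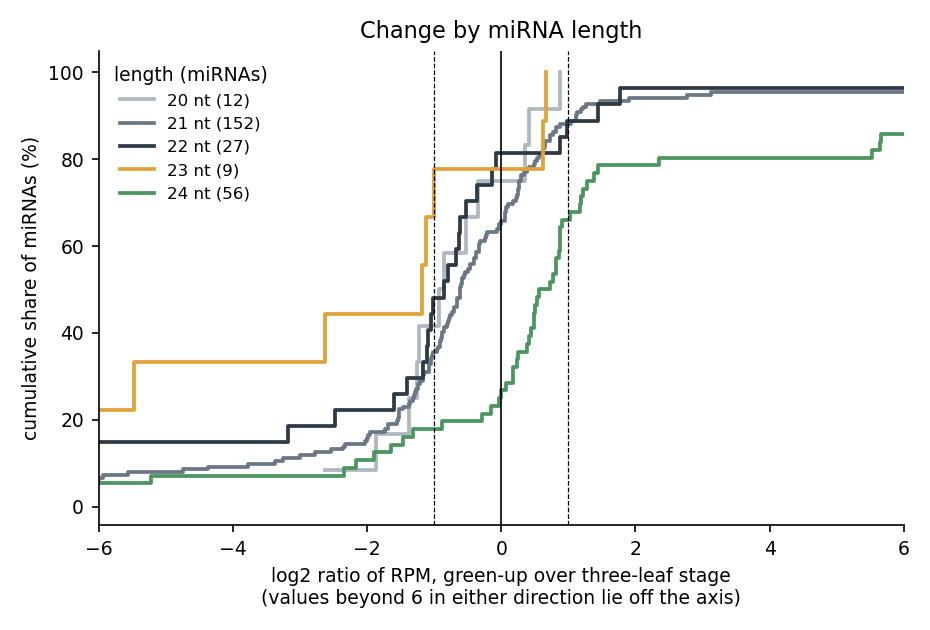
Cumulative share of miRNAs (y axis, percent) by log2 ratio of RPM at green-up over three-leaf (x axis), 1 line for each length. The line of the 56 miRNAs of 24 nt lies to the right of the others over most of the axis, with a median of 0.64 against −0.61 for the 152 of 21 nt.

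Families miR1117 to miR1139 and their relatives, many of which resemble the ends of small inverted-repeat transposons of grasses, had ratios above the median of all miRNAs for the most part. Of 32 compared, 26 had a ratio above 1, 5 were higher (15.6%) and 1 lower (3.12%), and the median was 0.56. Over all miRNAs 15.6% were higher and 34.8% lower, so on the deposited values the list differed in its lower calls and not in its higher ones. After median-ratio scaling 17 of the 32 were higher and 1 lower, when 27.0% and 21.9% of all miRNAs were. Under that scaling the list differed in its higher calls as well. miR1135 was listed at 39.5 RPM and 200.9 RPM, 5.09-fold higher, with a log2 ratio of 2.35 (2.24 to 2.45), the largest rise among the 85 miRNAs above 100 RPM in 1 library and above 0 in both. miR1130 was at 3.4 RPM and 29.7 RPM, miR1133 at 33.1 RPM and 86.2 RPM, and miR1436 at 162 RPM and 391.3 RPM. The abundant miR1127a and miR1127b-3p were within 2-fold, at 345.4 RPM and 485.1 RPM and at 367.9 RPM and 500.4 RPM.

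Many of these share the run ACGGA or its reverse complement UCCGU, part of the terminal repeat of Stowaway transposons. The run stood in 35 of the 348 listed sequences (10.1%), searched in both orientations. The sequences below are shown to place it, with the run in capitals.
miR1135: caaguaauuccgaACGGAgggagu
miR1436: auuuugggACGGAgggaguaa
miR1122b-3p: agacuuauauuuaggaACGGA
miR5049d: agacaaauauuuaggaACGGA
miR5205a: auaauuuuggaACGGAgggag
miR5205b: uuauauuaugggACGGAggga
miR7697-5p: UCCGUccgaaaauacuugucg
Of the 31 that were compared, 22 had a ratio above 1, 5 were higher (16.1%) and 4 lower (12.9%), and the median was 0.44. Over all miRNAs these shares were 15.6% and 34.8%, so on the deposited values the share of higher calls was near that of all. After median-ratio scaling 13 of the 31 were higher and 2 lower, when 27.0% and 21.9% of all miRNAs were. The share of higher calls was then above that of all. The lower ones were miR2199 (167.9 RPM and 67.8 RPM), miR5205b, miR7697-5p (22.8 RPM and 0) and wheat_miR1613 (6.55 RPM and 2.51 RPM), of which miR2199 and wheat_miR1613 were within 2-fold under all 3 scalings. A match in letters is a description and was not tested as an origin. miR5205a was listed at 0 and 82.6 RPM and miR5205b at 83.4 RPM and 0, so the sum of the family was 0.990 of its three-leaf value at green-up. miR6220-5p and miR6224a-5p have identical sequences but separate values, 60.3 RPM and 47.9 RPM for the first and 201.1 RPM and 196.4 RPM for the second.

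A second shared run, the last 11 bases of miR5139, stood in 6 of the 348 sequences (1.72%) and spells the 3′ end of the initiator methionine tRNA, the primer of many retrotransposons. In Arabidopsis, miR845 acts on the primer binding sites of such elements. The run is in capitals.
miR845c: aggCUCUGAUACCAauugaaagga
miR1511: aaaaccuaggCUCUGAUACCAcug
miR1871: aggCUCUGAUACCAcuguuggguu
miR7782-3p: accuggCUCUGAUACCAcuguugg
miR5139: cgaaaccuggCUCUGAUACCA
miR8155: ucgaaaccuggCUCUGAUACCA
In 5 of the 6 the ratio was above 1, and the median was 0.72. miR845c was higher, at 4.6 RPM and 10.4 RPM, and the most abundant, miR5139, was at 134.4 RPM and 207.4 RPM. miR8155 holds the whole of miR5139 with 1 base more at the 5′ end and was at 5.9 RPM and 5.4 RPM.

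Entries that end in CCA, the letters that mature tRNAs carry at the 3′ end, numbered 10 of the 348 (2.87%). miR894 and miR5072 among them had 2 of the 10 largest falls above 100 RPM, and the most abundant ones not shown above are given with that end in capitals.
miR894: guuucacgucggguucaCCA
miR5072: cguuccccagcggagucgCCA
miR8175: ucguuccccggcaacggcgCCA
miR5054: guucgugccccacggugggcgCCA
miR894 was listed at 234.3 RPM and 38.1 RPM, 6.15-fold lower, and miR5072 at 113.1 RPM and 28.2 RPM, 4.01-fold lower. miR8175 was at 224.5 RPM and 108.4 RPM, a call that the scalings ended, and miR5054 was at 52.3 RPM and 28.5 RPM. Of the 9 compared, 1 was higher and 5 lower, with a median of −1.04, and 2 and 2 after median-ratio scaling. The one higher was miR160a-5p, a conserved miRNA that also ends in these letters. Whether the others derive from tRNAs was not tested.

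The remaining large differences among miRNAs above 100 RPM were in entries with no role given here. miR1023a-3p was listed at 169.4 RPM and 576.7 RPM, 3.40-fold higher, and had already stood at 506.2 RPM at dormancy. miR6219-5p was at 52 RPM and 118.4 RPM. On the lower side, miR5303c was at 181 RPM and 40.6 RPM and miR2876-5p at 199.9 RPM and 54.1 RPM, 4.46-fold and 3.70-fold lower. Both of the latter are of 24 nt, against the direction of most miRNAs of that length.

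In 41 of the 256 miRNAs, 1 of the libraries was listed at 0. A 0 was set to the value of 3 reads, 0.138 RPM in the three-leaf library and 0.137 RPM in the other, and a fold against it is a bound only if no more than 3 reads lie behind the 0. The smallest values listed were 13 and 5 reads. Of the 19 listed at 0 at the three-leaf stage, 11 were of 24 nt and 8 of 20 to 22 nt. Of the 22 listed at 0 at green-up, 4 were of 24 nt and 15 of 20 to 22 nt. Among all 256 compared, 56 were of 24 nt and 191 of 20 to 22 nt.

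Above 50 RPM in the other library, 3 miRNAs were at 0 before winter and 7 after it. miR6249a was listed at 0 and 111.8 RPM, at least 807.7-fold higher, provided that its 0 means no more than 3 reads. miR3950 was at 181.1 RPM and 0, at least 1321.3-fold lower by the same reckoning, and had been at 203.1 RPM at dormancy. miR7512 (117.4 RPM) and miR7767-5p (121.5 RPM) were also at 0 at green-up. All 41 are past 2-fold by this bound, so that 88 of the 129 calls, 21 higher and 67 lower, rest on values above 0 in both libraries.

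Some of these zeros sat beside a near copy. miR5387a and miR5387b differ by 1 base (G16A from miR5387a to miR5387b, counted from the 5′ end), and wheat_miR127 and wheat_miR128 by another (U2C from wheat_miR127 to wheat_miR128). The differing base is in capitals.
miR5387a: guggcacgaaccgguGcuaaaggu
miR5387b: guggcacgaaccgguAcuaaaggu
wheat_miR127: uUugaagacuaguuuauuaca
wheat_miR128: uCugaagacuaguuuauuaca
miR5387a was listed at 91.8 RPM and 0, and miR5387b at 0 and 288.3 RPM. Their sum was 3.14-fold higher at green-up. wheat_miR127 was at 0 and 47.56 RPM and wheat_miR128 at 113.4 RPM and 69.4 RPM, with a sum of 113.4 RPM and 117 RPM. In the first pair the listed names changed over and the sum was higher, and in the second the sum hardly differed. miR1877 and miR5050 have identical sequences, and were listed at 7.3 RPM and 19.8 RPM and at 3.9 RPM and 1.7 RPM. How reads were shared out between such names was not tested.

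Each of these libraries can also be set beside the dormant one, with which they share 1 side of the comparison. By the same rule 67 of 252 miRNAs (26.6%) were past 2-fold at dormancy against the three-leaf stage, 26 higher (10.3%) and 41 lower (16.3%). At green-up against dormancy it was 115 of 250 (46%), 43 higher (17.2%) and 72 lower (28.8%). Of the miRNAs described above, miR168a-5p stood at 32038.5 RPM at dormancy, miR9778 at 705 RPM, miR398a-3p at 91.7 RPM and miR396b-5p at 1734.1 RPM. Each of these was nearer to its three-leaf than to its green-up value. Other miRNAs called lower were already nearer to their green-up value at dormancy. Among them were miR894 at 67 RPM, miR530-3p at 13.7 RPM and miR2199 at 67.1 RPM. These are examples, and how many of the lower calls went each way was not counted. miR160a-5p, at 222.8 RPM, was below both compared stages at dormancy, and miR1023a-3p was nearer to its green-up value.

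Near the thresholds, miR1846a-5p (79.6 RPM and 39.7 RPM) and miR7484m (42.4 RPM and 86.2 RPM) were just past 2-fold, the first of them within it under each scaling, and miR6201 (7.8 RPM and 15.4 RPM) and miR167e-3p (62.7 RPM and 32.3 RPM) just within it. miR2607 (5.1 RPM and 0) passed the level of 5 RPM, and miR8129-5p (4.8 RPM and 4.7 RPM) did not.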

How the data were processed

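Small RNA libraries of wheat crowns, 1 a stage from the pooled RNA of 3 biological replicates, were sequenced by the authors on a BGISEQ instrument. Per the study's methods, SOAP served to discard reads of structural RNAs (ribosomal, transfer, small nuclear and small nucleolar) and of repeats, known miRNAs were assigned by BLASTN against miRBase with fewer than 2 mismatches, and the others by comparison with miRNAs of wheat leaves or with MIREAP. Tool versions and the genome build are not given in the sources used here. The deposited values are RPM (headed TPM), that is, reads per 1000000 mapped reads as computed by the authors, with 1 decimal kept for the known ones and 2 for the wheat_miRNAs.

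The groups were the three-leaf and green-up libraries, as the labels name them. Mapped reads (20530000 to 21890000 a library over the series) were recovered from the steps of the values with 2 decimals, and the reads of known miRNAs are known only to about 1 read. The log2 ratio of green-up over three-leaf was computed from the values as deposited, for miRNAs above 5 RPM in at least 1 library, and a call is a ratio beyond 2-fold. A 0 was set to the value of 3 reads. No test across libraries was possible. Exact (Clopper-Pearson) binomial intervals at the 95% level came from the recovered reads, and this step was checked on simulated reads. Sequence length was taken from the listed sequence, which for miR9674b-5p has 21 nt and not the 22 listed.

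Named are all members above the level in the conserved families and in miR444, miR528, miR530, miR827, miR5200, miR2118 and miR9863, the 10 most abundant in either library, the 10 largest rises and falls above 100 RPM, those at 0 in 1 library and above 50 RPM in the other, near-identical pairs with a call, miRNAs with mapped targets, and called members of the sequence lists; of these the text gives those that carry a result. miR9672b, miR9774, miR9675-3p, miR9670-3p, miR5054, miR1127a and miR1127b-3p were singled out after their values were seen where the rule does not reach them. The members and lists were chosen with earlier results of these data known. Alternatives covered the scaling, the level filter, what a 0 was set to, adding 1 RPM to both values, the fold threshold and the length classes. Calculations used Python 3.11.15, numpy 2.4.6, scipy 1.17.1 and pandas 2.3.3, and figures matplotlib 3.10.9. Genome positions of the miRNAs were not analysed here.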

Additional observations from a re-analysis of the deposited data

Results flagged for a closer look

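In the libraries not compared, 17 miRNAs that were listed at 0 at both the three-leaf and the green-up stage exceeded 5 RPM, 8 of them at dormancy and 12 at jointing, with 3 in both. A listed 0 was taken here to mean no more than 3 reads, 0.146 RPM at dormancy and 0.144 RPM at jointing. Each value below lies above that. wheat_miR1560 was listed at 1516.89 RPM at dormancy and 277.01 RPM at jointing. miR8135 was at 760.8 RPM at dormancy. miR2111a-3p, of a family induced by phosphate shortage, was at 568.5 RPM at jointing. At dormancy the other values were 41 RPM for miR394b-3p, 24 RPM for miR774a-5p.1, 26.5 RPM for miR3627a, 36.5 RPM for miR5175-5p, 48.2 RPM for miR5241a and 22.69 RPM for wheat_miR2185. At jointing they were 27.1 RPM for miR160a-3p, 32.6 RPM for miR169b-3p, 73.3 RPM for miR893, 7.6 RPM for miR1033a, 47.7 RPM for miR1163.2, 28.6 RPM for miR5175-5p, 19.7 RPM for miR7501, 45.3 RPM for miR9569-5p, 8 RPM for miR9666a-3p and 11.97 RPM for wheat_miR2185. Each of these is a value of 1 library.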

How the results depend on the processing

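The number of miRNAs past 2-fold (129) was 125, 122 and 137 under the 3 scalings, but its direction depended on them: 69 higher and 56 lower with the median ratio, 65 and 57 with the sum of listed miRNAs, and 92 and 45 with the sum without miR159a.1 and miR168a-5p. The median of all miRNAs (−0.48) was then −0.01, −0.07 and 0.29, as these scalings add 0.47, 0.41 and 0.77. A level filter of 20 RPM left 84 calls (26 higher, 58 lower) and a 4-fold threshold 63 (22 higher, 41 lower), as both admit fewer miRNAs, and 21 higher calls were above 0 in both libraries. The difference between the length classes ran from 1.08 to 1.25 over its alternatives, of which leaving out the transposon-like list (1.24) was chosen after seeing the data. So was leaving out identical or contained sequences and miR165a-3p, 9 entries, which gave 128 calls, and leaving miR165a-3p out of the meristem list (median −0.74 in place of −0.90). Of the 90 named miRNAs 69 were called, and 52, 53 and 47 of these stayed called under the scalings, 66 with a pseudocount of 1 RPM and 69 with a 0 as 1 read. No paired analysis was possible because each stage has 1 library. With 1 pooled library a stage, the spread between plants is unknown.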
